A study of Mus musculus with 2 samples.

Results

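Splicing regulators and heterogeneous nuclear ribonucleoproteins (hnRNPs) are the proteins that bind nascent transcripts and decide which splice sites the spliceosome uses. They were examined here in day 5 T cell blasts as all probe sets whose single annotated gene symbol starts with Srsf, Hnrnp, Sf3a or Sf3b, or is U2af1, U2af2, Tra2a, Tra2b, Ptbp1, Ptbp2, Ptbp3, Celf1, Celf2, Mbnl1, Mbnl2, Rbm39 or Son. This gave 51 of 18193 named genes, measured by 181 of 45037 probe sets. A probe set is a group of short oligonucleotides on the array that reports 1 transcript region. All samples were of mouse 5cc7 T cells, specific for a peptide of moth cytochrome c (MCC), on day 5 after stimulation with it in vitro. Biotin-labelled cRNA from their polyadenylated RNA was applied to 2 Affymetrix mouse 430 2.0 arrays, named set 1 and set 2. The arrays form 1 group with no resting, untreated or earlier sample. Strain, age and number of mice are not given in the labels, nor whether separate cultures were used, and differences between the arrays may be technical.

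SR proteins carry domains rich in arginine and serine, bind exonic enhancers and recruit the spliceosome, while many hnRNPs act on the same transcripts as silencers or package them for export and storage. U2AF and the SF3a and SF3b complexes mark the 3' splice site and the branch point. T cells use this machinery when they are activated: the variable exons of Ptprc (CD45) are skipped in activated cells under hnRNP L and hnRNP LL, and CELF2 is known from human T cells as a regulator of activation-dependent exons.

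Values are the deposited linear intensities, with the value of set 1 followed by that of set 2. The call above background required a probe set to exceed a bound on both arrays. The bound was the 95th percentile over probe sets for liver, eye, pancreas and kidney genes, at 48.17 on set 1 and 54.505 on set 2. A gene was above background when at least 1 of its probe sets was. Probes differ in how strongly they bind, so different probe sets are not ranked against each other as abundances.

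The 2 arrays had medians of 36.4 and 37.9 and maxima of 8860.2 and 8718.8. All 9 measured T cell markers were above background, among them Cd3e at 1430.7 and 1364.6 and Cd4 at 1186.1 and 1051.4. Cd3d read 4882.9 and 4459.9, Cd3g 2835.3 and 2851.4, Cd247 1478.2 and 1450.5 and Thy1 3547.2 and 3350.9, and Zap70, Lat and Cd28 were above background too. Both CD8 genes were above the bound. Cd8a read 65.6 and 67.3 at the brightest of 5 probe sets, of which 2 were above background. Cd8b1 read 190.5 and 235.3 at its only probe set. Of 5 B cell genes 4 were above background, while Pax5 read 54 and 53.7. Ighm read 2580.6 and 2163 at the brightest of 11 probe sets, of which 5 were above background. Ms4a1 read 389.7 and 365.1, Cd79b 166.2 and 164.5 and Cd79a 118.4 and 98.4. Whether other cells contributed to the regulator values below was not tested. Of 7 macrophage genes 1 was above background, Csf1r at 57.3 and 146.7, and Adgre1, C1qa, C1qb, Cd14, Itgam and Lyz2 were not. Neither NK gene was, with Ncr1 at 3.8 and 22.7 and Klra8 at 1.8 and 4.2. The other listed markers were not analysed here.

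Nearly every splicing regulator chosen by these symbols was detected. Of the 51 genes 50 were above background, against 48.6% of all named genes, and of the 181 probe sets 155 (85.6%) were, against 39.3% of all probe sets. More probe sets give a gene more chances of passing: the call was made for 64.3% of named genes with at least 2 probe sets and for 33.2% of those with 1. Of the splicing regulators 40 had at least 2 probe sets, and all 40 were above background. The other 11 had 1, and 10 of these were. The exception was Srsf12, an SR family gene, at 0.4 and 9.2.

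**Figure D1:**
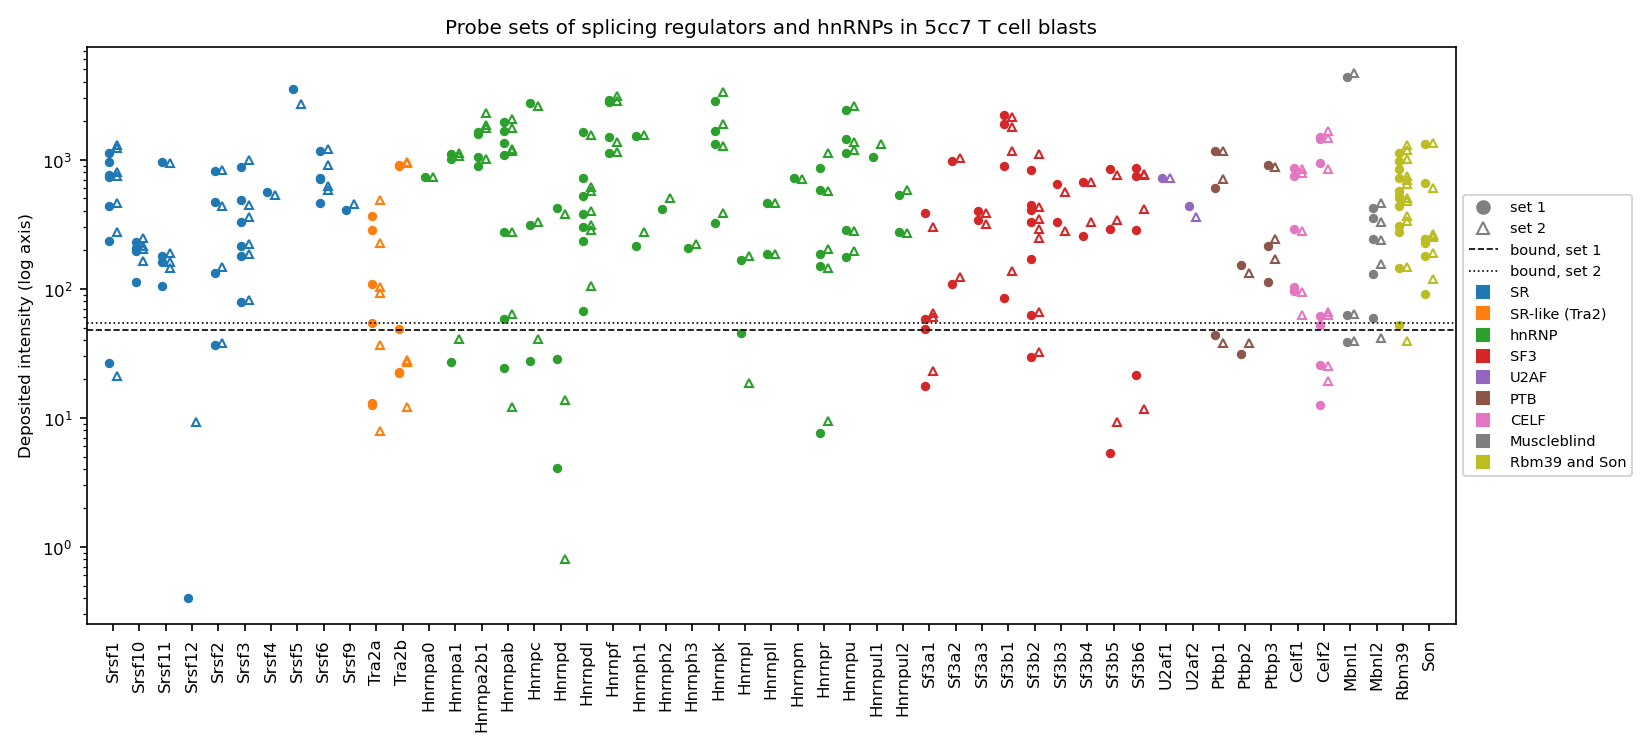
Deposited intensity (log axis) of each of the 181 probe sets, by gene, with filled circles for set 1 and open triangles for set 2. Dashed and dotted lines are the bounds of 48.17 (set 1) and 54.505 (set 2). All genes but Srsf12 have at least 1 probe set above both lines, and 20 genes have probe sets on both sides.

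Among the SR genes, taken as all with a symbol starting with Srsf, 9 of 10 were above background, with 30 of 33 probe sets. Srsf7 was not among them, since no probe set analysed here had its symbol alone. Srsf5, which promotes exon inclusion, had a single probe set at 3551.3 and 2698.3. Its log2 difference of 0.43 (set 1 minus set 2) was the second highest among the 155 regulator probe sets above background. Srsf1, the founding SR protein also called SF2/ASF, read 1117.1 and 1227.4 at its brightest probe set. The other 5 Srsf1 probe sets above background read 964.1 and 1290.2, 765.8 and 798.1, 734 and 742, 439.3 and 459.4, and 233.2 and 276.9, and the last read 26.6 and 20.9. Thus 1 of 7 Srsf1 probe sets was below both bounds while the others were several times above them.

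Srsf2 (SC35), a protein of nuclear speckles, had 3 of 4 probe sets above background, at 817.4 and 828.1, 465.8 and 439.6, and 133.2 and 147.1, with the remaining one at 36.9 and 37.6. Srsf3 (SRp20), the smallest SR protein, which also acts in mRNA export, had all 6 above background, the brightest at 874 and 989.7 and the dimmest at 78.8 and 81.7. Srsf6 read 1171.2 and 1198 at the brightest of 4 probe sets and Srsf11 read 949.7 and 935.8 at the brightest of 4, all above background. Srsf10 (SRp38), which represses splicing when it is dephosphorylated, had 4 of 4 above background, the brightest at 228.6 and 214.8. Srsf4 (SRp75) had 1 probe set, at 557.8 and 529.3. Srsf9 (SRp30c) also had 1, at 409.1 and 451.5.

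The Tra2 genes encode SR-like proteins that bind purine-rich exonic enhancers, and their probe sets were split, with 6 of 11 above background. Tra2b read 915.2 and 954.2 and 891.3 and 935.3 at its 2 detected probe sets, whereas its other 3 read 48.6 and 28.2, 22.8 and 26.9, and 22.3 and 12.2. Tra2a read 368.2 and 489.7, 286.4 and 224.4, 108.1 and 103.7, and 54.3 and 93 at 4 probe sets above background. Its remaining 2 read 13 and 36.9 and 12.5 and 7.9. The dimmest Tra2a probe set above background was 1 of the 3 closest to the bound on the detected side, with Sf3a1 (49.1 and 59.9) and Celf2 (52.5 and 62.8). The closest on the other side belonged to Mbnl2 (59.3 and 41.2), Mbnl1 (38.4 and 39.3) and Rbm39 (52 and 39.2).

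All 19 hnRNP genes were above background, with 51 of 58 probe sets. In the A/B and D groups, whose members bind splicing silencers or AU-rich elements, Hnrnpa2b1 read 1622.6 and 2277.6 at the brightest of 4 probe sets, all above background, and it held the lowest log2 difference among regulator probe sets above background (below). Hnrnpa0 had 1 probe set at 732.2 and 731.8. Hnrnpa1, a widely acting exon silencer, read 1100.5 and 1115.2 and 1003.8 and 1071.2 at 2 of its 3 probe sets and 27 and 40.9 at the remaining one. Hnrnpab was above background at 6 of 7 probe sets. They read 1959.5 and 2059.8, 1666.8 and 1750.8, 1349.9 and 1199.2, 1079.6 and 1167.7, 272.6 and 273.9, and 57.7 and 63.5, and the seventh read 24.2 and 12.1.

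Hnrnpd (AUF1), known for directing decay of AU-rich mRNAs, was detected by 1 of 3 probe sets, at 419.4 and 379.8, with the others at 28.4 and 13.7 and at 4.1 and 0.8. Its relative Hnrnpdl was detected by 7 of 7, the brightest at 1648 and 1559.7. Hnrnpc, which binds uridine tracts and shields cryptic exons, read 2761.4 and 2587.8 and 309.1 and 326.2, and 27.5 and 40.6 at a remaining probe set that was not above background.

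HnRNP F and the H proteins bind runs of G. Hnrnpf read 2902.1 and 3127.9 at the brightest of 4 probe sets and Hnrnph1 read 1512.5 and 1542.5 at the brighter of 2, all above background. Hnrnph2 had 1 probe set at 411.9 and 500.7, and Hnrnph3 had 1 at 206.3 and 220.2. Hnrnpk, which binds C-rich RNA, had 4 of 4 above background, the brightest at 2861.9 and 3322.7. Hnrnpu, a scaffold protein of the nucleus, had 5 of 5, the brightest at 2413.3 and 2590.7. Of its relatives, Hnrnpul1 read 1043.4 and 1326.3 at its only probe set and Hnrnpul2 read 533.6 and 577.9 at the brighter of 2, both above background. Hnrnpm had 1 probe set at 725.7 and 701.4. Hnrnpr was above background at 4 of 5 probe sets, at 867.9 and 1124.3, 582.5 and 573.6, 185.6 and 203.8, and 150.1 and 143.5, while the fifth read 7.6 and 9.5.

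Hnrnpll and Hnrnpl, which encode known silencers of the CD45 variable exons, were both detected. Hnrnpll, which is induced in activated lymphocytes, read 465.1 and 457.5 and 185.5 and 185.9 at its 2 probe sets. Hnrnpl read 166.4 and 179.1 at 1 probe set and 45.1 and 18.7 at the other, which was not above background. Their target Ptprc read 5038.4 and 4745.6 at the brighter of 2 probe sets, both above background. Which Ptprc exons the transcripts contained cannot be read from these probe sets as annotated. All 6 measured genes of a list of transcripts known to be alternatively spliced in T cells were above background. Besides Ptprc these were Cd44 (951.4 and 1037.8), Lef1 (1445.1 and 1428), Malt1 (715.3 and 812.2), Fyn (830.2 and 788.9) and Fas (163.9 and 153).

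The SF3a and SF3b subunits, which bring the U2 snRNP to the branch point, were above background for 9 of 9 genes and 26 of 30 probe sets. Sf3b1, the large subunit that clamps the branch helix, had 4 of 4 above background, at 2224.7 and 2152.1, 1880.5 and 1804, 899.7 and 1160.4, and 84.9 and 136.6. Sf3a2 read 981.7 and 1029.1, Sf3a3 400.5 and 386, Sf3b3 647.6 and 556.6 and Sf3b4 669.6 and 673.6 at the brighter of 2 probe sets each, all above background. Probe sets fell on both sides of the bound for the other 4 subunits.

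Sf3a1 read 386.8 and 299.8, 57.7 and 65.2, and 49.1 and 59.9 above background and 17.7 and 23.1 at the fourth probe set. Sf3b5 read 845.8 and 762.2 and 289 and 340.5, with its last probe set at 5.3 and 9.2. Sf3b6 (p14), which contacts the branch adenosine, read 860.9 and 754.1, 751.7 and 780, and 287.1 and 411.5, with its last at 21.6 and 11.7. Sf3b2 was above background at 6 of 7 probe sets, at 830.8 and 1102.2, 445.7 and 345.4, 406.3 and 425.6, 331.4 and 289.4, 169.4 and 248.6, and 62.3 and 66.2, and read 29.6 and 32.5 at the seventh. The undetected probe sets of Sf3b2, Sf3b5 and Sf3b6, and the dimmer undetected one of Tra2a, had names ending in _x_at, an Affymetrix mark for probes that may also match other transcripts.

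The U2AF heterodimer binds the polypyrimidine tract through its large subunit and the terminal AG through its small one. U2af1, the small subunit, read 714.2 and 715.1 and U2af2, the large subunit, 434.5 and 362.2, each at a single probe set above background.

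Polypyrimidine tract binding proteins repress exons through pyrimidine-rich sites. Ptbp1, the widely expressed member, read 1158.7 and 1157.1 and 601.6 and 702.5, and 43.5 and 38.1 at its remaining probe set, not above background. Ptbp2, best known from neurons, read 152.6 and 132.8 at 1 probe set and 31 and 37.7 at the other. Ptbp3 (ROD1), first described in blood cells, had 3 of 3 above background, at 909.6 and 878.1, 214.8 and 244.4, and 112.3 and 170.8. All 3 paralogues therefore had at least 1 probe set above background.

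Celf2 was above background at 5 of 7 probe sets, at 1503.9 and 1651.6, 1443.9 and 1473.9, 933.6 and 842.9, 60.9 and 65.7, and 52.5 and 62.8, and not at those reading 25.5 and 25.2 and 12.6 and 19.3. Celf1, which binds GU-rich RNA and acts in splicing and decay, had 5 of 5 above background, at 863.5 and 847.5, 746.2 and 787.5, 290.7 and 278, 102.2 and 93.7, and 96.2 and 62.6. The muscleblind genes encode zinc finger regulators studied mostly in muscle, where they oppose CELF proteins on many exons. Mbnl1 read 4376.6 and 4667 at 1 probe set, 62.2 and 64.1 at another and 38.4 and 39.3 at the last, which was not above background. Mbnl2 read 422.9 and 465.1, 355.6 and 331.4, 242.4 and 239.1, and 129.3 and 155.6, and 59.3 and 41.2 at its last, which passed on set 1 alone.

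Rbm39, a U2AF-related coactivator of splicing, was the most densely covered member, with 12 probe sets of which 11 were above background. Its 6 brightest by mean read 1124.5 and 1181.6, 984 and 1296.8, 838.6 and 1016.4, 714.3 and 745.8, 566.8 and 695.9, and 440 and 646.2. The next 5 read 505.4 and 504, 520.3 and 479.1, 308.2 and 364.6, 272.7 and 334.3, and 144.8 and 148, and the last read 52 and 39.2, above the bound on set 1 alone. Son, a speckle scaffold, was above background at 7 of 7 probe sets, the brightest at 1327.9 and 1355.9 and the dimmest at 90.6 and 118.4.

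Probe sets of 20 of the 40 regulator genes with at least 2 probe sets thus fell on both sides of the bound. All 40 had at least 1 probe set above it. Of all named genes with at least 2 probe sets, 3590 of 9010 (39.8%) fell on both sides. Only 5797 of the 9010 had a probe set above the bound, and the rest could not fall on both sides. Among genes with a detected probe set the share to compare is therefore 3590 of 5797, which is higher than that of the regulators. The 20 regulators include Ptbp2 and Hnrnpl with 2 probe sets each. What distinguishes the probe sets of a gene in transcript position was not analysed here. All 36 regulator probe sets with names ending in _a_at and all 17 ending in _s_at were above background, against 86 of 108 ending in _at and 16 of 20 ending in _x_at. Over the whole array 2654 of 4426 probe sets ending in _a_at were above background, and the shares were 57.8% for _s_at, 34.8% for _at and 52.6% for _x_at.

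The rest of the splicing apparatus was also detected almost throughout. All 28 measured proteins of the spliceosomal snRNPs were above background, with Snrpe at 2459.1 and 2558.8, Snrpg at 2346 and 2669.9 and Snrpb at 984.5 and 876.7 at their only or brighter probe set. All 23 genes in a list of the catalytic spliceosome and associated factors were above background. They include the helicase genes Ddx39b (1718.3 and 1687.3) and Dhx15 (1460.2 and 1427.6) and the ubiquitin ligase gene Prpf19 (1150.1 and 1225.3). All 7 measured genes of the minor spliceosome were above background, with Snrnp48 at 494 and 490.7, Rnpc3 at 251.9 and 317.2 and Zcrb1 at 267.8 and 279.8.

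Kinases and the import receptor of SR proteins were above background for 10 of 10 genes, including Clk1 at 1127.8 and 1187.6, Srpk1 at 989.2 and 898.4 and Prpf4b at 382.8 and 419.9. Of the exon junction and nonsense-mediated decay genes 11 of 12 were, with Rnps1 at 996.8 and 1069.5, Smg1 at 642.2 and 729.1 and Rbm8a at 715.7 and 648.8. The exception was Eif4a3, the helicase core of the exon junction complex, at 23.2 and 4.8 at its only probe set. All 29 other widely expressed RNA-binding regulators were above background, among them the branch point protein gene Sf1 (3461.1 and 3327), Pcbp2 (3013.1 and 2955.1) and Srrm2 (2014.3 and 1959.8).

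Of a list of regulators known mainly from other tissues, though not all confined to them, 5 of 23 were above background (21.7%), against 48.6% of all named genes. These were the brain-enriched Celf5 (62.3 and 63.8) and Nova2 (104.1 and 84.2), the epithelial Esrp2 (56.7 and 54.6), Mbnl3 (134.7 and 155.4) and Rbfox2 (100.8 and 141.9). Those not above background included A1cf at 37.9 and 51.5, Celf3 at 40.2 and 71 and Celf4 at 28.4 and 26.4. In a second list of genes of other organs, 5 of 34 exceeded the same bound, among them Tg at 444.8 and 418.3. Genes of other organs thus passed the bound too, which limits calls made close to it. Some calls in the general splicing lists were that close. They include Srpk3 (57.9 and 55.3, with 1 of 4 probe sets above background), Snrnp35 (57.3 and 55.8), Ddx23 (63.2 and 57.6) and Upf1 (51.7 and 103.3).

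**Figure D2:**
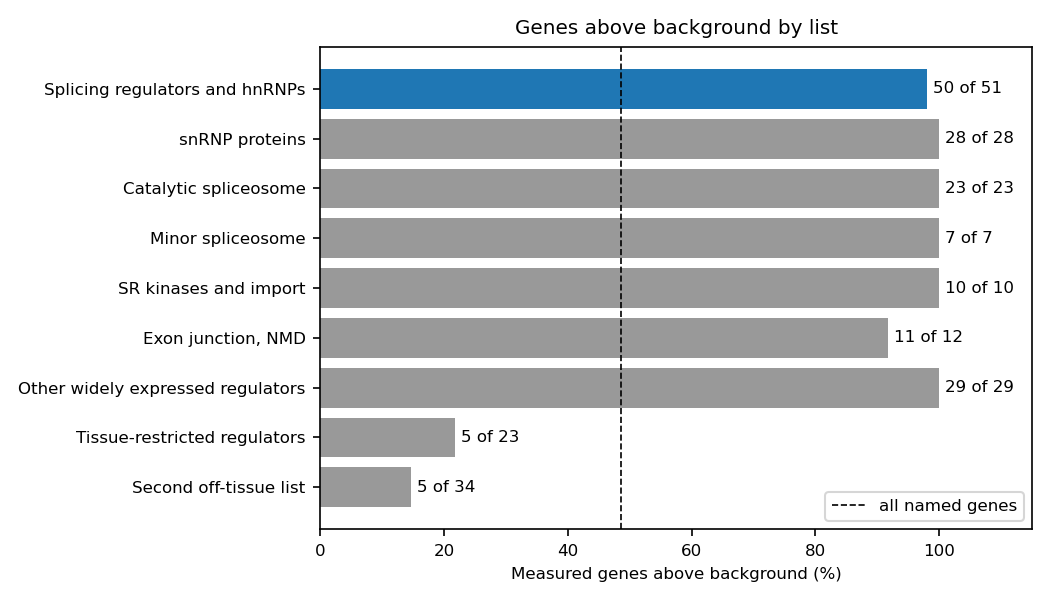
Share of measured genes above background in each list (%), with counts beside the bars and the share over all named genes (48.6%) as a dashed line. The splicing regulators (50 of 51) and the general splicing lists reach 91.7% or more. The regulators known mainly from other tissues, labelled tissue-restricted, stand at 5 of 23.

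The arrays gave nearly the same values for these regulators. Across the 155 probe sets above background, log2 intensities had a Pearson's r of 0.988 and a Spearman's rho of 0.990. Over all 17711 probe sets above background these were 0.985 and 0.972. Probe sets are not independent replicates and share the 2 hybridisations. Each difference is the log2 ratio of set 1 to set 2 after centring on its median over all probe sets above background (-0.03). They had a median of -0.04 and an SD of 0.23 for the regulators, against 0.00 and 0.25 for all 17711 probe sets above background. The regulators were brighter, with a median intensity of 461.3 against 169.65 over probe sets of all named genes above background. In mean intensity bins of 256 to 512 and 512 to 1024, their SD was 0.21 against 0.19 and 0.19 against 0.17 for all. At 1024 to 2048 it was 0.21 against 0.15, and above 2048 it was 0.19 against 0.12. At 128 to 256 it was smaller, at 0.21 against 0.24, as it was below 64 (0.09 against 0.20). No regulator probe set had the same value on both arrays. Such matches were rare over all probe sets too, at 315 of 45037.

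More than 1.5-fold separated the arrays for 5 of the 155 probe sets, against 3.12% of all probe sets above background. Only Celf1 was higher on set 1, at 96.2 and 62.6 (log2 difference 0.65), where 0.949% of all probe sets were. The 4 lower on set 1 were in Hnrnpa2b1 (1041.8 and 1837.4, -0.79), Tra2a (54.3 and 93, -0.74), Sf3b1 (84.9 and 136.6, -0.65) and Hnrnpdl (67.2 and 105.6, -0.62), with 2.17% of all probe sets lower by as much. Of the 5, all but Hnrnpa2b1 lay between 64 and 128 in mean intensity, where 4 of 11 regulator probe sets (36.4%) and 6.32% of all probe sets above background passed this limit. The SD of the difference in that range was 0.42 for the regulators and 0.31 for all. The next largest differences were 0.43 in Srsf5, 0.40 in a probe set of Sf3b2 (445.7 and 345.4), 0.40 in Sf3a1 (386.8 and 299.8) and 0.38 in Tra2a (286.4 and 224.4) on the positive side and -0.57 in Ptbp3 (112.3 and 170.8) on the negative side.

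**Figure D3:**
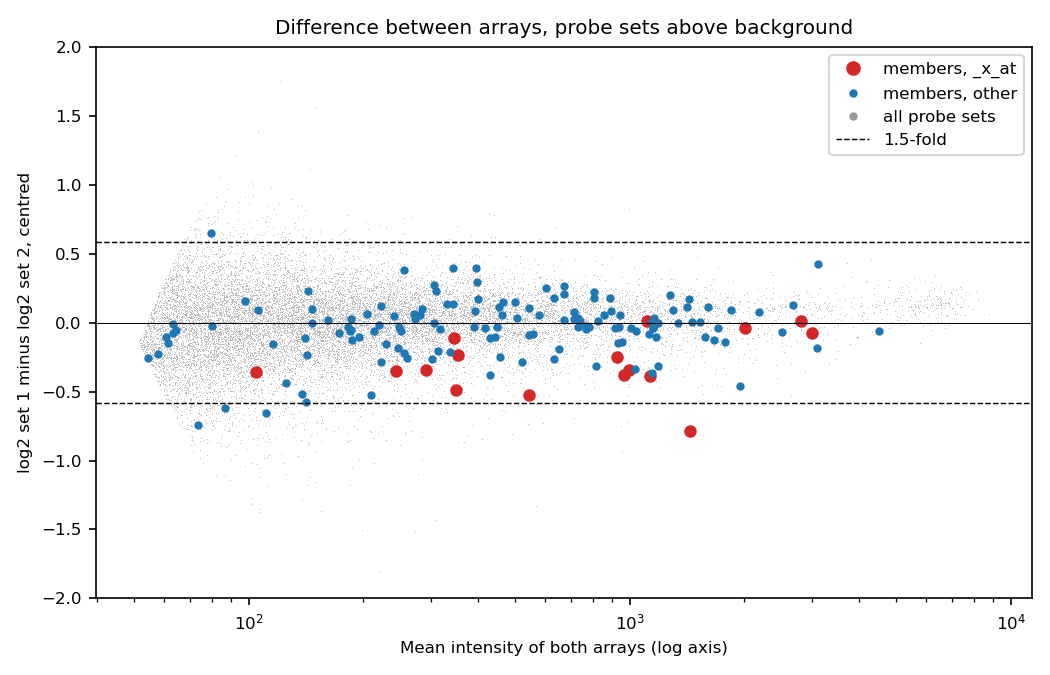
Centred log2 difference between the arrays against mean intensity (log axis) for the 17711 probe sets above background (grey), with splicing regulators ending in _x_at in red and their other probe sets in blue. Dashed lines mark 1.5-fold, which 5 of 155 regulator probe sets exceed, and 14 of 16 red points lie below 0.

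The regulator probe sets ending in _x_at stood lower on set 1 than the others. The pattern was noticed in these values and was not tested. Their median log2 difference was -0.34 (SD 0.22, n = 16 probe sets), and 14 of 16 were below 0. The other 139 regulator probe sets had a median of -0.03 (SD 0.21), with 78 below 0. Of all probe sets above background, 50.1% of those ending in _at, 47.2% in _a_at and 47.5% in _s_at were below 0. Over the whole array the 1284 probe sets ending in _x_at above background had a median of -0.03 (SD 0.28), and 56.9% were below 0. Differences below -0.2 were found in 11 of the 16 (68.8%), against 27.0% of all _x_at probe sets above background.

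The 16 probe sets came from 14 genes, each of which also had probe sets of other endings above background. In 13 of the 14 the _x_at median was below that of the gene's other probe sets, and the median gap was -0.34. Among all 692 named genes with both kinds, 419 had a lower _x_at median and the median gap was -0.07. In Hnrnpa2b1 the _x_at probe set differed by -0.79 and the other 3 had a median of -0.14. In Sf3b6 the values were -0.49 and 0.10, in Hnrnpr -0.34 and 0.05 and in Srsf1 -0.39 and -0.03. Hnrnpa1 was the exception, at 0.01 and -0.06, and in Hnrnpab both medians were -0.04. Markers of other cells also differed between the arrays in the sum of each gene's brightest probe set. The 7 macrophage genes summed to 214.6 on set 1 and 374 on set 2, although 6 of them were not above background and C1qa and C1qb were slightly higher on set 1. Csf1r alone read 57.3 and 146.7. The 5 measured B cell genes summed to 3308.9 and 2844.7, in the opposite direction. Most of that gap lay in the brightest Ighm probe set (2580.6 and 2163). Cd79b (166.2 and 164.5) and Pax5 (54 and 53.7) hardly differed. The part of either list in the _x_at result was not tested.

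**Figure D4:**
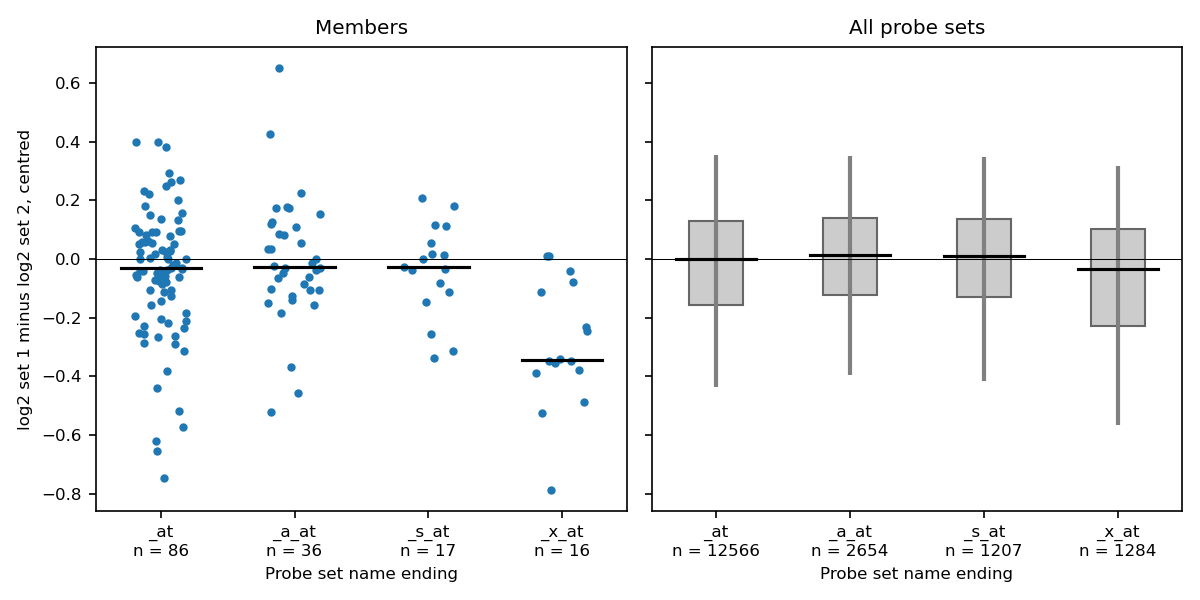
Centred log2 difference between the arrays by the ending of the probe set name. Left, each regulator probe set above background with the median as a bar, and right, all probe sets above background as boxes (quartiles), median bars and lines from the 5th to the 95th percentile. The regulators ending in _x_at have a median of -0.34, against -0.03 for all such probe sets.

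Promoters were described from RefSeq windows of the GRCm38.p6 assembly, cut to the 250 bases before each annotated start. Windows were matched by symbol for 45 of the 51 genes, with 65 windows in all since 11 genes have several starts. Regulator windows were rich in CpG, with a median of 22 CpG dinucleotides, a range of 1 to 46 and quartiles of 17 and 30. All 32851 windows had a median of 6, those of named genes above background 16 and those of named genes not above background 7. The SR windows had a median of 33, the hnRNP windows 23 and the SF3 windows 18.

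**Figure D5:**
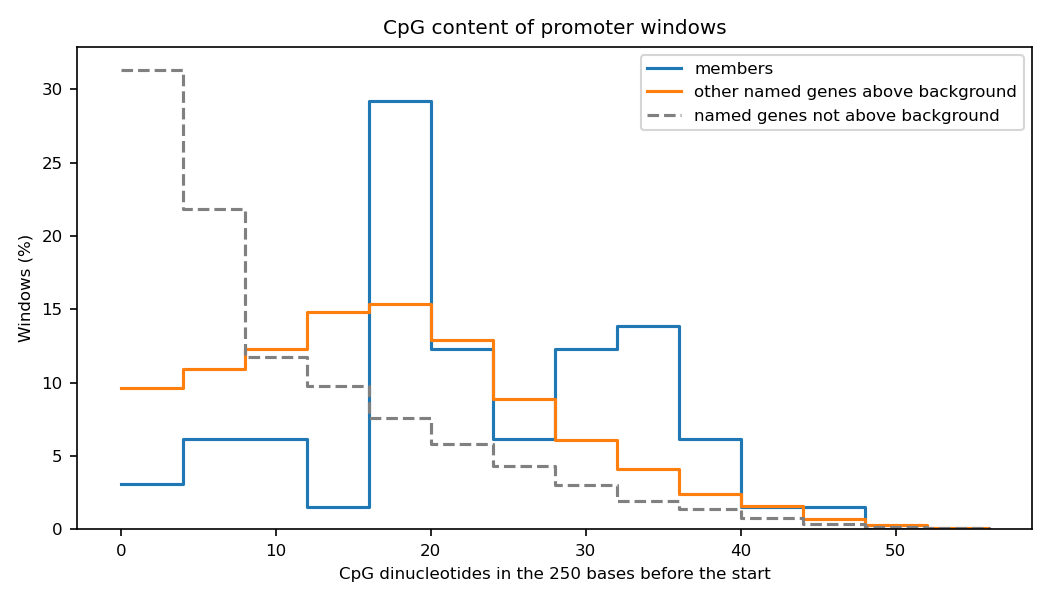
Distribution of the number of CpG dinucleotides in the 250 bases before the start, as a percentage of windows in bins of 4, for splicing regulators (blue), other named genes above background (orange) and named genes not above background (dashed grey). The regulators peak at 16 to 19 and have a second mode above 28, with a median of 22 against 16 for named genes above background.

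The first windows shown are of Srsf12, the regulator that was not detected, and of Mbnl1, whose 2 annotated starts differed in CpG content more than those of any other regulator except Celf2 (3 to 43). They are printed 5' to 3' on the plus strand with each CpG in capitals. The Srsf12 window held 19 CpG, a number within the regulators' quartiles. The Mbnl1 windows held 1 and 33, and the first also held TATAAA and CCAAT. From which start the Mbnl1 transcripts arose was not analysed here.

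Srsf12, chr4:33209022-33209271: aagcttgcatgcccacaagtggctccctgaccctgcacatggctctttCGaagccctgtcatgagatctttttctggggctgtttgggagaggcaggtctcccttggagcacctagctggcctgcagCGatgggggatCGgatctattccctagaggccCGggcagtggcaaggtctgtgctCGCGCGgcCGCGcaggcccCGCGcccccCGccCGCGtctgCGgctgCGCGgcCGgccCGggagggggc
Mbnl1, upstream start, chr3:60472580-60472829: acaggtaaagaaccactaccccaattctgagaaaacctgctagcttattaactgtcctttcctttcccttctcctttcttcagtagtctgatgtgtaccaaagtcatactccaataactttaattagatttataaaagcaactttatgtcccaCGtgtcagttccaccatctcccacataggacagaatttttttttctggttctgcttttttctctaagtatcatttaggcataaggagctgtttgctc
Mbnl1, downstream start, chr3:60500929-60501178: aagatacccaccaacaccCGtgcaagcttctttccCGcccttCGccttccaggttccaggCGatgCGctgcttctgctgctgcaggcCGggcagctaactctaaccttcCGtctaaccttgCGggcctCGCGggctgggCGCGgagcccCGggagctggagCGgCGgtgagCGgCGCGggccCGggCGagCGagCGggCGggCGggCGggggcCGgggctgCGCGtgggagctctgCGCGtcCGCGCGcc

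Motifs of 3 kinds were searched on both strands: CCGGAAG, the core bound by ETS factors, CCAAT and TATAAA. No motif contains another, and each was counted separately. CCGGAAG occurred in 15 of 65 regulator windows (23.1%), against 6.91% of all windows and 1389 of 9242 windows of named genes above background. Some of the regulator windows overlap. By gene, 11 of 45 regulators (24.4%) held it, against 7.83% of all genes and 17.9% of named genes above background. These were 6 of 7 SF3 genes with a window, 3 of 10 SR genes and 2 of 17 hnRNP genes. CCAAT was found for 12 of 17 hnRNP genes (70.6%) and 24 of 45 regulators (53.3%), against 37.5% of all genes and 40.4% of named genes above background. TATAAA was found for 6 of 45 regulators (13.3%), against 14.3% of all genes with a window and 7.33% of named genes above background.

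The SF3 matches are shown with up to 20 bases on either side, on the strand that reads CCGGAAG, which is in capitals. They are given because this motif was found in nearly all SF3 promoters. Of the 2 overlapping Sf3b2 windows, 1 is shown. Sf3b1 was the SF3 gene with a window and no match, and Sf3b4 and Sf3b5 had no window. For Sf3a1 the match ended at the last base before the start, and for Sf3b3 it lay 222 bases before it. Sf3b6 held 2 matches, on opposite strands. A match is a description of the sequence and not of binding.

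Sf3a1, chr11:4160327-4160353, plus strand: gaaacggcgagagggcgggaCCGGAAG
Sf3a2, chr10:80798639-80798685, plus strand: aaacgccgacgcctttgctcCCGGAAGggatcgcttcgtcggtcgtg
Sf3a3, chr4:124714751-124714797, minus strand: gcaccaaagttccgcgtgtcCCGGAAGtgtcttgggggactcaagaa
Sf3b2, chr19:5295456-5295488, minus strand: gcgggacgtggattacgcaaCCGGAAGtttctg
Sf3b3, chr8:110847006-110847052, plus strand: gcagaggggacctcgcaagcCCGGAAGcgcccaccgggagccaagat
Sf3b6, chr12:4817503-4817549, minus strand: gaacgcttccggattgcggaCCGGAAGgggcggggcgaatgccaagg
Sf3b6, chr12:4817518-4817564, plus strand: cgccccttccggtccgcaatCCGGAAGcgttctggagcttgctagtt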

How the data were processed

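The series matrix held 1 value per probe set for each of 2 arrays. The values deposited by the authors are intensity values on a linear scale, as judged from their range (0 to 8860.2, 1 decimal). How background was corrected and probes were summarised and scaled is not given in the sources used here. With 2 arrays the precision is limited. Controls of the manufacturer (64 of 45101 probe sets) were left out. Gene names came from GEO's platform annotation, in which 34945 of 45037 probe sets had 1 symbol, 932 had several and 9160 were not listed. All 181 probe sets of the splicing regulators matched RefSeq (GRCm38.p6) by Entrez identifier, with 0 symbols changed.

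Intensities below 1 were set to 1 before log2. The bound was the 95th percentile of 54 probe sets of the first off-tissue list, and the fold limit was 1.5. With 1 group of 2 arrays no test between groups was possible, so counts stand beside those over all probe sets or genes. The calculation of differences between the arrays was checked on simulated data with known changes. The simulated noise was smaller than the spread seen here, and changes were placed only in brighter probe sets. The check therefore does not cover the dim probe sets that gave most differences over the fold limit. The members and lists were chosen with earlier results of these data known, and the members' detection and the marker levels partly repeat them. Named were all members, every probe set of members with 3 or more probe sets on both sides of the bound, the 5 largest differences each way, the 3 highest and up to 3 undetected genes of each other splicing list, and all genes of the T cell target and marker lists. Some genes of the other splicing lists that lay close to the bound were named as well. Protein features, which had been planned, were not analysed here, and the promoter description was added. Alternatives covered the bound, endings, arrays, scaling, floor and fold limit. Python 3.11.15, numpy 2.4.6, pandas 2.3.3 and matplotlib 3.10.9 were used.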

Additional observations from a re-analysis of the deposited data

Results flagged for a closer look

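Probe sets annotated to several genes were left out of the counts above, and 7 of them name an hnRNP gene beside pseudogenes or predicted genes. They are given here because each was above background although no comparison used it. Of these, 3 list Hnrnpa1 with Gm10052, Hnrnpa1l2-ps2 and Gm5643. They had mean intensities of 1227.4 (1201.1 and 1253.7 on set 1 and set 2), 1876.05 (1810.4 and 1941.7) and 1545.75 (1537.7 and 1553.8). The other 4 list Hnrnpa3, a relative of Hnrnpa1, with Gm6793. They had means of 1343.7 (1249.9 and 1437.5), 1513.85 (1429.8 and 1597.9), 605.15 (527.3 and 683) and 774 (761.1 and 786.9). Hnrnpa3 was not counted among the regulators, since none of the probe sets analysed here had its symbol alone. The share of signal from each listed gene was not tested.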

How the results depend on the processing

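The count of regulator genes above background was 50 in the main setting and 48 to 50 under the alternatives, and that of probe sets was 155 and 122 to 160, the lowest after _s_at and _x_at endings were left out. With 1 array alone (without replicate 1 or 2), the probe set count was 155 to 158, the gene count 50 and the count of genes on both sides of the bound 18 to 20. Genes on both sides numbered 20, with 15 to 22 under all alternatives. The count over 1.5-fold was 5. It was 2 with the bound from the second off-tissue list, where fewer dim probe sets were kept, 25 with a narrower fold limit and 0 with a 2-fold limit, and 4 to 6 otherwise. The median difference of -0.04 ranged from -0.07 without centring to -0.03. The median of the _x_at probe sets was -0.34 to -0.38 under 8 alternatives chosen after seeing the data. No paired analysis was possible because there is 1 group. The 2 arrays limit every statement on spread, and nothing here separates biological from technical variation.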
